A study of Mus musculus with 192 samples.

Results

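The Rab GTPase genes were taken as the protein-coding genes of the GENCODE vM1 annotation (mouse genome build mm9) whose symbol is Rab, a number and at most 2 further letters. This rule found 57 of the 22350 protein-coding genes annotated on the 19 autosomes and the X chromosome. It was a rule on names, so it also took in Rab3ip, which encodes the exchange factor Rabin8 and is no GTPase itself, and 56 genes remained without it. No measured value entered the rule, but it was chosen with earlier results of these data known.

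Rab proteins are small GTPases that label the membranes of the cell. Loaded with GTP by an exchange factor (GEF), a Rab binds effectors that move, tether or fuse vesicles, and a GTPase-activating protein (GAP) returns it to the GDP form, which the GDP dissociation inhibitor (GDI) extracts from the membrane through its prenyl tail. Most nucleated cells use the Rabs of the ER, Golgi and endosomes, whereas some members are best known from epithelia (Rab17, Rab25), neurons (Rab3a, Rab3c, Rab15), pigment cells (Rab38) or granule-bearing blood cells (Rab27a, Rab37, Rab44).

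The DNA accessibility data came from Pi-ATAC, which records the sites where a transposase cuts open chromatin in single cells sorted by a protein stain. 4T1 cells, a mouse breast cancer line stained for EpCAM, had been mixed with splenocytes stained for CD45, and 96 cells of each kind were sorted by title (95 and 97 by source name). The splenocytes came from the spleen of an MMTV-PyMT mouse, whose transgene is driven in mammary epithelium, and that animal carried no tumour when it was killed. All cells had formaldehyde fixation and transposition as one mixture, and the labels gave neither an age nor a further allele or treatment.

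The deposited file analysed here lists 50000 windows of 500 bp, each placed on a peak summit called on aggregated cells, with positions but no score and no value per cell. It was therefore read as 1 pooled sample. There was no replicate and no test, counts are given beside the same counts over all genes, and whether a window came from 4T1 cells or from splenocytes cannot be told apart. Windows lay within 1 kb of a start of all 5 epithelial marker genes checked (Epcam, Cdh1, Krt8, Krt18, Krt7) and of the splenocyte markers Coro1a, Laptm5, Cd79a and Cd3e. Ptprc, which encodes CD45, had 3 distal windows and none at a start, and Lyz2 had none of either kind. Peak calls were numbered up to 118153, and the list held between 27.2% and 31.3% of the numbers on chromosomes 1 and 10 to 13 against 38.2% to 44.4% on the others, so the main counts are also given for these 2 sets of chromosomes.

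Promoter windows were common at the Rab genes. A promoter window, meaning at least 1 bp of overlap with the region within 1 kb of any annotated transcript start, was listed for 43 of 57 Rab genes (75.4%) and for 48.1% of all protein-coding genes. Without Rab3ip the count was 42 of 56 (75%). On chromosomes 1 and 10 to 13 it was 11 of 16 (68.8%, all genes 49.2%), and on the others 32 of 41 (78%, all genes 47.8%). Of the 43 genes, 27 had 1 promoter window, 9 had 2, 6 had 3 and Rab31 alone had 4. The share with 2 or more promoter windows was 16 of 57 (28.1%) beside 24.4% of all genes, and the share with a promoter window from a call of several summits was 9 of 57 (15.8%) beside 13%, so the Rab genes stood above the background in having any promoter window and near it in these counts of several windows or summits.

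Rab genes were also listed with windows away from starts. A distal window, meaning one in the gene or 10 kb either side but not at the start of any protein-coding or long non-coding gene, was found for 33 Rab genes (57.9%, all genes 43.8%), with 79 such windows in all. On chromosomes 1 and 10 to 13 the share was 62.5% (all genes 40.2%) and on the others 56.1% (all genes 45%). The median was 1 per Rab gene and 0 over all genes, and the means were 1.39 and 1.14. At the gene lengths of the Rab genes the mean over all genes would be 1.23. The Rab mean was below that of all genes among the longest genes (1.84 against 2.19) and among those with the most CpG-rich promoters (1.33 against 1.65), and above it in the other classes of length and CpG ratio. At least 5 distal windows were listed for 5 Rab genes (8.77%, all genes 5.95%). Overlapping windows of 1 call were counted apart, and Rab36 and Rab37 reach 5 only with such windows. With overlapping windows merged, the 79 distal windows became 74. Neither kind of window was found for 8 Rab genes (14%, all genes 35.5%). A further 47 windows in the loci of 24 Rab genes lay at the starts of neighbouring genes and were counted apart.

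**Figure D1:**
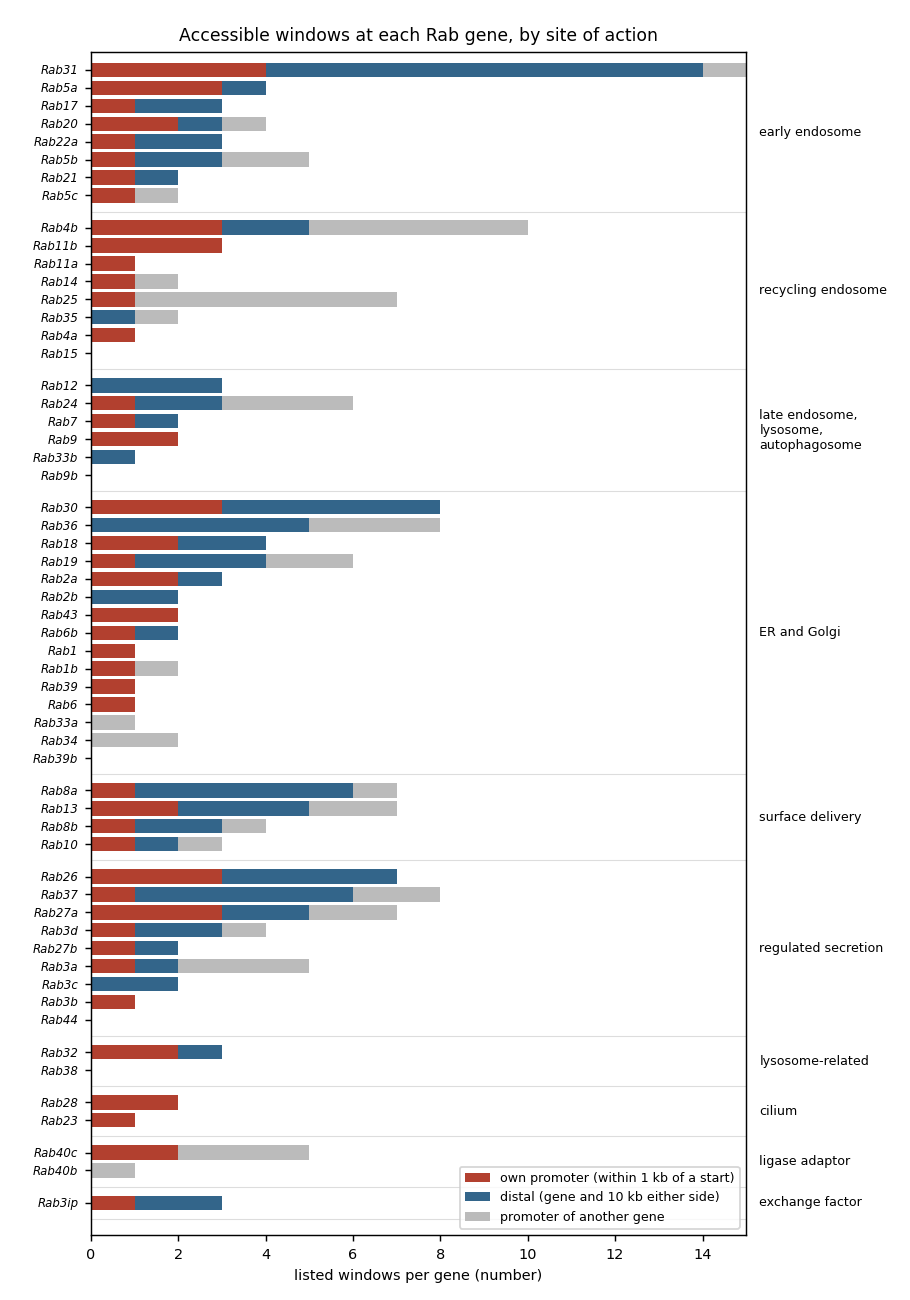
Listed windows at each of the 57 Rab genes, as stacked bars of the number of windows at the gene's own promoter (red), distal in the gene or 10 kb either side (blue) and at the promoter of another gene (grey), grouped by the site where the protein acts. Rab31 stands out with 4 promoter and 10 distal windows, and all 8 early endosome genes have a red bar.

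The count of genes with a promoter window did not turn on the distance chosen. In the 43 genes with one, the centre of the nearest window lay at most 326 bp from a start (Rab40c), with a median of 94 bp. In the other 14 the nearest window of any kind was at least 3156 bp away (Rab33b) and as far as 76.0 kb (Rab38). The count of 43 was the same at 500 bp and at 2.5 kb from a start, whereas over all genes the share went from 46.3% to 51.3%. Around their transcript starts the windows of the Rab genes had a median position of -65 bp (negative is upstream), beside -27 bp over all genes. Within 250 bp of a start lay 64.2% of the 67 Rab promoter windows and 57.2% of all promoter windows.

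**Figure D2:**
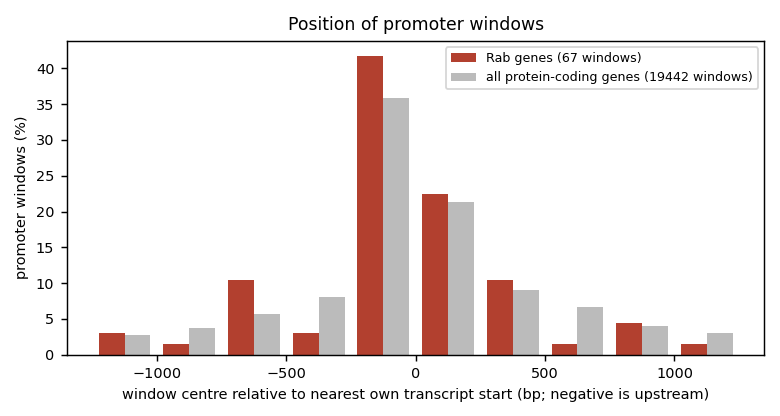
Position of promoter windows, as the percentage of windows (vertical axis) by the distance in bp from the window centre to the nearest start of the same gene (horizontal axis, negative is upstream), for the 67 windows of Rab genes (red) and the 19442 gene and window pairs of all protein-coding genes (grey). Both sets peak just upstream of the start.

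CpG content and gene length went along with these counts. The CpG ratio, observed over expected CpG in the 1 kb around the outermost start, had a median of 0.730 in Rab genes and 0.549 in all genes, and the median gene length was 23.2 kb against 15.4 kb. In the highest of 3 equal classes of all genes by CpG ratio (above 0.708), 24 of 30 Rab genes (80%) had a promoter window, beside 80.4% of all genes. In the middle class 17 of 24 (70.8%) had one, beside 51.5%. Only 3 Rab genes fell in the lowest class (below 0.311), and 2 of them, Rab17 and Rab25, had a window, beside 12.5%. Both of these windows lay at inner starts, whereas the CpG ratio was taken at the outermost one. With the outermost start only, the counts were 0 of 3 (all genes 7.74%), 15 of 24 (62.5%, all genes 48.1%) and 24 of 30 (80%, all genes 78.7%) from the lowest to the highest class. If the Rab genes of each CpG class had the share of all genes in it, 64.7% of them would have a promoter window, and by length class 54.8%, in place of the 75.4% counted. With the outermost start only, 68.4% were counted and the CpG classes gave 62.1%. The gap to all genes was therefore smaller at a matched CpG ratio, and among the CpG-rich genes the Rab share was at the background. The part of expression level in these counts was not tested.

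**Figure D3:**
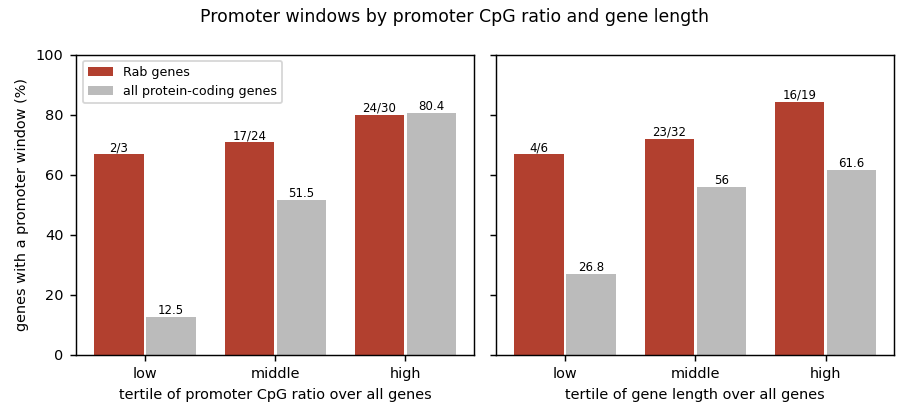
Percentage of genes with a promoter window (vertical axis) in 3 equal classes of all protein-coding genes by promoter CpG ratio (left) and by gene length (right), for Rab genes (red, with counts) and all protein-coding genes (grey, with percentages). The red and grey bars are level at the high CpG ratio (24 of 30 beside 80.4%) and apart in the other classes.

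The groups by site of action were small, and no difference between them was tested. All 8 early endosome Rabs had a promoter window (all genes 48.1%), that of Rab17 only at an inner start. They had 14 promoter windows, and 7 of the 8 also had distal windows (87.5%, all genes 43.8%), 19 in number. Rab5a, which drives fusion of early endosomes, had 3 promoter windows, at -822, -191 and 639 bp, and 1 distal window. Its relatives Rab5b and Rab5c had 1 promoter window each, and 2 and 0 distal windows. Rab20, a Rab of macrophage phagosomes, had 2 promoter windows and 1 distal window. Rab21, which carries integrins inward, had 1 of each, and Rab22a, which acts in endosome sorting, had 1 and 2.

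Rab31, the close relative of Rab22a that acts between the trans-Golgi network and endosomes, was the Rab gene with the most windows. It lies on the minus strand at chr17:66001066-66122092 and is 121 kb long. Its 4 promoter windows were centred at 945, 19, -518 and -1020 bp, and its 10 distal windows ran from -2913 bp to 91564 bp, 8 of them in introns. At least 10 distal windows were listed for 1.2% of all genes, and 4 or more promoter windows for 3.33%. Per 100 kb of locus Rab31 had 7.09 distal windows, beside 2.45 over the Rab genes together and 1.75 over all genes. Denser still were the shorter loci of Rab26 (15.4), Rab36 (13.3), Rab8a (11.7), Rab19 (10.3), Rab13 (9.18) and Rab24 (8.79). At Rab26 and Rab36 overlapping windows of the same call were each counted, which raises their densities. Without Rab31 the Rab genes had 69 distal windows. The word TGAGTCA, the core that AP-1 (Fos and Jun dimers) binds, was found on either strand in 5 of the 10 distal windows. Its share was 25.4% over all distal windows and 29.1% over those of Rab genes. No other Rab gene had as many distal windows with the word, but none had as many distal windows either. The 5 sites of Rab31 are printed with the word in capitals and 40 bases either side (mm9, intronic).
Rab31 chr17:66030530-66030616 minus strand: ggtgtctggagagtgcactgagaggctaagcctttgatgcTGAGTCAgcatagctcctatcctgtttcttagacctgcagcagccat
Rab31 chr17:66069255-66069341 plus strand: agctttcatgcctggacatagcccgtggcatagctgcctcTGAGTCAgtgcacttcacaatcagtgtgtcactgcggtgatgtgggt
Rab31 chr17:66075859-66075945 plus strand: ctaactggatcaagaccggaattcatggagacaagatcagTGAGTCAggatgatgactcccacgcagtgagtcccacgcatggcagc
Rab31 chr17:66087063-66087149 minus strand: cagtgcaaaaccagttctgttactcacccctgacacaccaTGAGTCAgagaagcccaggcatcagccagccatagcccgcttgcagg
Rab31 chr17:66089638-66089724 plus strand: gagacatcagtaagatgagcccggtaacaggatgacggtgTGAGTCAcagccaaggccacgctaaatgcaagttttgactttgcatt

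**Figure D4:**
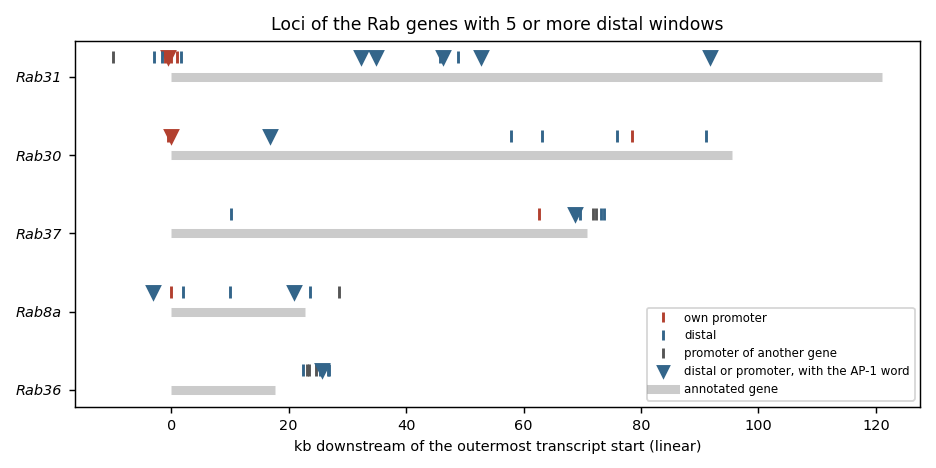
Windows along the 5 Rab genes with 5 or more distal windows, by distance in kb from the outermost transcript start in the direction of transcription (linear horizontal axis). Grey bars are the annotated genes, ticks are window centres (red own promoter, blue distal, dark grey promoter of another gene) and triangles mark windows with the AP-1 word. Rab31 windows run through the gene, whereas those of Rab36 all lie past its end.

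Recycling endosome Rabs had promoter windows in 6 of 8 genes (75%, all genes 48.1%). They had few windows elsewhere, with 3 distal windows in 2 genes (25%, all genes 43.8%). Rab4b, of the fast recycling route, had 3 promoter and 2 distal windows and Rab4a 1 and 0. Rab11a and Rab11b, of the slow route, had 1 and 3 promoter windows and no distal window. Rab14, of the route between Golgi and endosomes, had 1 promoter window. Rab35, which recycles cargo at the plasma membrane, had no promoter window although its CpG ratio, 0.992, was the highest of the 14 genes without one, and its nearest window lay in an intron at 3656 bp. Rab15 had neither kind.

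Rab25, the Rab11 relative known from epithelia, is a case where the annotation decides the count. Its only window (chr3:88347275-88347774, centre at -89 bp) lay at the start of a transcript annotated as a retained intron, 4.79 kb inside the gene. From its outermost start that window was 4.70 kb away, the nearest window upstream lay at -4625 bp, at the starts of Lamtor2 and Ubqln4, and 6 windows of the locus lay at neighbouring promoters. Rab17, an early endosome Rab of polarised epithelia, had its promoter window at an inner start of a protein-coding transcript, 1.99 kb inside the outermost one, and that inner start is the one the RefSeq promoter sequence matched. It also had distal windows at -2084 and -5544 bp, the latter with TGAGTCA and with GGAATGT, the TEAD core. In all, 4 of the 43 Rab genes with a promoter window had it only at an inner start (Rab17, Rab25, Rab27b, Rab37; 9.3%), beside 6.83% of all genes with one. The 200 bases before the start are printed for Rab11a and for the inner start of Rab25, to show a listed CpG-rich promoter (CpG ratio 0.778 around the start) beside a CpG-poor one (0.288 around the outermost start). Capitals mark the words searched, on either strand, which in the Rab11a stretch were those of ETS factors, SP/KLF factors and NF-Y (spelled out with the word counts), and no word was found in the Rab25 stretch.
Rab11a chr9:64585566-64585765 minus strand: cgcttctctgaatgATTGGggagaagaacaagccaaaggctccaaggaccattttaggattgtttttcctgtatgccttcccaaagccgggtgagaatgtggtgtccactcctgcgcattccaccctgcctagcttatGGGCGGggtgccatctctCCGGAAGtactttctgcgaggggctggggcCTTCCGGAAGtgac
Rab25 chr3:88347437-88347636 minus strand: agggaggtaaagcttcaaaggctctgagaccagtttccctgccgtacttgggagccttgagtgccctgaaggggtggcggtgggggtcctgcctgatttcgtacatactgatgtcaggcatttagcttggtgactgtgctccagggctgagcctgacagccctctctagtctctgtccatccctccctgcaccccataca

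Late endosome, lysosome and autophagosome Rabs had promoter windows in 3 of 6 genes (50%), which was near the share of all genes (48.1%). Rab7, the master Rab of late endosomes and lysosomes, had 1 promoter and 1 distal window. Rab9, which returns receptors to the Golgi, had 2 promoter windows, and Rab24, linked to autophagy, had 1 with 2 distal windows. The Rab24 promoter window also lay at the start of Prelid1, so the list cannot assign it to 1 of them. The same held for 1 of the 2 promoter windows of Rab13, shared with Rps27, and for that of Rab6, shared with Mrpl48. Rab12, which sends the transferrin receptor to lysosomes, had no promoter window but 3 distal windows, and Rab33b, which acts in autophagosome formation, had 1. Rab9b had neither.

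The 15 ER and Golgi Rabs had 10 genes with a promoter window (66.7%, all genes 48.1%) and 19 distal windows in 7 genes (46.7%, all genes 43.8%). Rab1 and Rab1b, of ER to Golgi traffic, each had 1 promoter window and no distal one. Rab6 and Rab6b, of traffic within and from the Golgi, had 1 each, with 1 distal window at Rab6b, and Rab2a had 2 with 1. Rab18, of the ER and lipid droplets, had 2 promoter and 2 distal windows. Rab30, a Golgi Rab, had 3 promoter windows, of which 1 was at an inner start, and 5 distal windows, all intronic. Rab19 had 1 and 3, Rab43 2 and 0, and Rab39 1 and 0. Rab36 had no promoter window, and its 5 distal windows all lay past its end, 21245 to 25693 bp from its nearest start, among 3 windows at the promoter of the neighbour Bcr. Rab2b had 2 distal windows and no promoter window, and Rab33a, Rab34 and Rab39b had neither.

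All 4 Rabs of delivery to the cell surface had both kinds of window (all genes 48.1% with a promoter window, 43.8% with a distal one). Rab8a, which brings vesicles to the plasma membrane and cilium, had 1 promoter window at 2 bp and 5 distal windows, from -3079 to 23437 bp. Rab8b had 1 and 2, Rab10, which also carries glucose transporters, had 1 and 1, and Rab13, of tight junctions, had 2 and 3.

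Among the 9 Rabs of regulated secretion, 7 had a promoter window (77.8%, all genes 48.1%). A distal window was also listed for 7 (77.8%, all genes 43.8%), 17 windows in number. Rab27a, which docks lytic granules, melanosomes and exosome-bearing endosomes, had 3 promoter windows, all summits of 1 call, and 2 intronic distal windows, while Rab27b had 1 promoter window at an inner start, 88.0 kb inside the outermost, and 1 distal window. Rab37, known from mast cell granules, had its promoter window at an inner start 62.7 kb inside the outermost and 5 distal windows. Rab26, of secretory granules, had 3 promoter and 4 distal windows in or beside a gene of 5.95 kb. By windows listed it had the densest locus of all Rab genes, at 15.4 distal windows per 100 kb. Its distal windows include overlapping ones from 1 call (starts at 24664564 and 24664852), each counted, so this rank rests on how overlapping windows are counted. Of the synaptic vesicle family, Rab3a had 1 promoter and 1 distal window, Rab3b 1 and 0 and Rab3d, known from exocrine granules, 1 and 2. Rab3c had none at a start and 2 distal windows in 227 kb. Rab44, a large Rab of granule-bearing blood cells, had neither, and its CpG ratio, 0.217, was the lowest of the 14 genes without a promoter window.

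Small groups completed the family. Of the Rabs of lysosome-related organelles, Rab32 had 2 promoter windows and 1 distal window, whereas Rab38 had neither and stood in a stretch of 701 kb without a listed window. The ciliary Rabs Rab23, a brake on Hedgehog signalling, and Rab28 had 1 and 2 promoter windows and no distal one. Of the ubiquitin ligase adaptors, Rab40c had 2 promoter windows and Rab40b none. The exchange factor gene Rab3ip had 1 promoter and 2 distal windows.

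The 14 Rab genes without a promoter window were Rab12, Rab15, Rab2b, Rab33a, Rab33b, Rab34, Rab35, Rab36, Rab38, Rab39b, Rab3c, Rab40b, Rab44 and Rab9b. Their median CpG ratio was 0.688, beside 0.740 for the 43 with one, and the ranges overlapped, since values without a window ran from 0.217 to 0.992. At Rab40b the call numbers on either side of the starts followed each other directly, so no call at all, listed or not, was numbered in the 66.2 kb between them. At the other 13 genes between 2 and 16 call numbers were absent around the starts (16 at Rab15, 11 at Rab38), so a weaker call that did not enter the list remains possible there. On the X chromosome 1 of 4 Rab genes (25%), Rab9, had a promoter window, beside 34.2% of all X-linked genes. None of the 4 had a distal window, beside 17.6% of all X-linked genes, so with 4 genes this is no result about the Rab genes.

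Paralogues were also set side by side. Among 24 pairs, in which some genes stand more than once, 16 had a promoter window at both genes, 2 at neither (Rab33a with Rab33b, Rab34 with Rab36) and 6 at only 1. With a window at 75.4% of the Rab genes, most pairs would match whether related or not, so the count of matching pairs is no result about paralogues. The 6 were Rab2a with a window and Rab2b without (85.4% protein identity, as a share of the shorter protein), Rab3a and Rab3c (83.2%), Rab40c and Rab40b (78.1%), Rab39 and Rab39b (77.5%), Rab9 and Rab9b (73.1%) and Rab32 and Rab38 (67.8%). In each of the 6 pairs the member with the window also had the higher CpG ratio, by as little as 0.761 against 0.752 for Rab39 and Rab39b. Pairs with windows at both genes included the most alike, Rab1 and Rab1b (92.5%), Rab6 and Rab6b (90.9%) and Rab11a and Rab11b (90.7%), and also Rab11a and Rab25 (62%).

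The sequences of the windows were searched on both strands for 18 short words bound by known factors, and each share is set beside all windows of the same kind and length, 17303 promoter and 20788 distal windows. A word is a match of letters and no evidence of binding. The GC box GGGCGG was found in 67.2% of the 67 Rab promoter windows (all 63.5%), the NF-Y word CCAAT in 58.2% (45.1%), the ETS word CCGGAAG in 13.4% (17.5%) and the HIF word GACGTG in 19.4% (14.6%). Distal windows were poorer in CpG, with a median ratio of 0.234 (all 0.217) against 0.684 in promoter windows (all 0.699). TGAGTCA was found in 23 of the 79 Rab distal windows (29.1%, all 25.4%) and in 7.46% of the promoter windows (all 8.89%). The 23 lay at 15 of the 33 genes with a distal window. That share of genes was not computed over all genes, so it is no result about the Rab genes. The E-box CACGTG was found in 13 distal windows (16.5%, all 8.93%), among them 3 windows of Rab36 and 2 each of Rab27a and Rab31, and in promoter windows the share was lower than over all windows (8.96%, all 12.8%). In distal windows the RUNX word TGTGGTT (13.9%, all 13.8%) and the TEAD word GGAATGT (10.1%, all 9.15%) were at the background. In promoter windows the RUNX word was found in 7 of 67 (10.4%, all 6.78%) and the TEAD word in 1 (1.49%, all 5.05%). These counts are small, and no difference was tested.

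**Figure D5:**
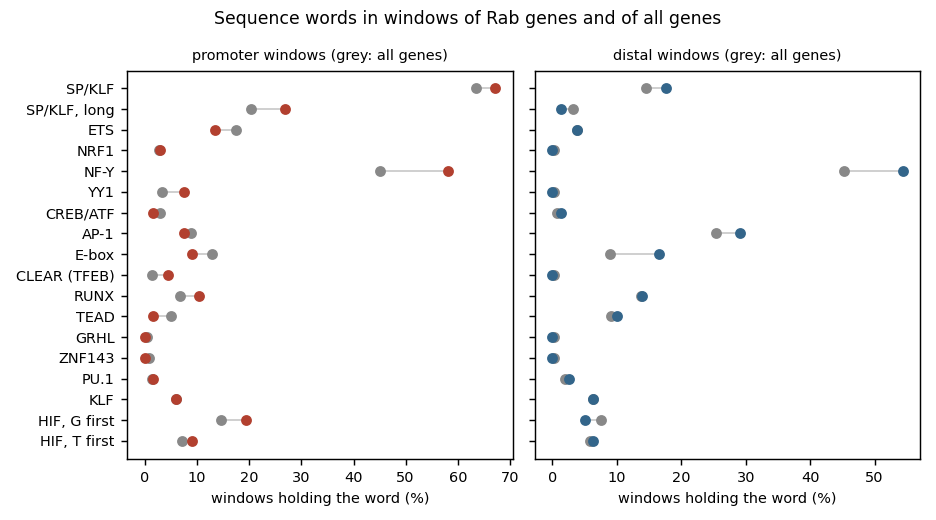
Percentage of windows that hold each of 18 sequence words (horizontal axes) in promoter windows (left, 67 of Rab genes in red) and distal windows (right, 79 of Rab genes in blue), with all windows of the same kind in grey. Most pairs of points lie close. The widest gaps are those of NF-Y (58.2% beside 45.1% in promoter windows, 54.4% beside 45.2% in distal windows).

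A pair of longer words is shown site by site, each with a larger share in Rab promoter windows than in all promoter windows. Rarity did not set these words apart. Some other longer words were rarer still in Rab promoter windows: GCGCATGCG (NRF1) 2.99% (all 2.72%), TGACGTCA (CREB/ATF) 1.49% (all 2.82%) and AGAGGAAGT (PU.1) 1.49% (all 1.33%). The long SP/KLF word GGGGCGGGG was more frequent, at 26.9% (all 20.4%), and CCACACCC (KLF) was in 5.97% (all 5.9%). AACCGGTT (GRHL) and CTACAATTC (ZNF143) were in 0% (all 0.347% and 0.705%). The shares of the pair rest on few windows, and no difference was tested. GTCACGTGA, the CLEAR element read by TFEB, the regulator of lysosome genes, holds the E-box CACGTG within it and was found in 3 Rab promoter windows (4.48%, all 1.32%), those of Rab5a, Rab21 and Rab24. Each site is printed with 10 bases either side and the word in capitals (mm9), and the 3 sites lay at -93, -27 and 5 bp of the start.
Rab21 chr10:114752660-114752688 plus strand: cacacccctcGTCACGTGAccgcggtggg
Rab24 chr13:55423322-55423350 plus strand: gggacgcccgGTCACGTGAcgcgggcgcc
Rab5a chr17:53618452-53618480 plus strand: acccggggatGTCACGTGActtcggcccc

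AAGATGGCG, the YY1 word, was found in 5 Rab promoter windows (7.46%, all 3.24%), at Rab13, Rab14, Rab22a, Rab5a and Rab8b, and was present a second time in the Rab22a window. The sites lay between -263 and 543 bp of a start, and those of Rab14, Rab22a (1 of 2) and Rab8b lay within 22 bp of it. They are printed in the same way.
Rab13 chr3:90017340-90017368 minus strand: gagaggagatAAGATGGCGgcccagctac
Rab14 chr2:35056488-35056516 plus strand: gggctggcccAAGATGGCGgcgctccctg
Rab22a chr2:173485357-173485385 plus strand: ctggcgtcccAAGATGGCGgcggcggtag
Rab22a chr2:173485005-173485033 minus strand: ggcacatcctAAGATGGCGggtgagtggg
Rab5a chr17:53619088-53619116 plus strand: ttcccttcacAAGATGGCGccgtgggaag
Rab8b chr9:66767425-66767453 minus strand: ccggagtgagAAGATGGCGaagacgtacg

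The machinery that runs the Rab cycle was listed about as often as the Rabs themselves. Of 118 genes of regulators and effectors, 91 (77.1%) had a promoter window, beside 75.4% of the Rab genes and 48.1% of all genes. Rab3ip stands in both counts, and without it they were 90 of 117 (76.9%) and 42 of 56 (75%). Exchange factors came highest, with 32 of 34 (94.1%), and the exceptions were Rab3il1 and Dennd2a. Prenylation and GDI genes had 7 of 8 (87.5%, without Chml), GAPs 27 of 34 (79.4%) and effectors 25 of 42 (59.5%). The most distal windows in each class were at Rin2 with 10, Rin3 with 9 and St5 with 9 among exchange factors, Usp6nl with 11, Rabgap1l with 8 and Tbc1d1 with 6 among GAPs, and Rab11fip1 with 9, Rab11fip5 with 6 and Bicd2 with 4 among effectors. Rin2 and Rin3 encode exchange factors of Rab5 proteins, and Rab11fip1 and Rab11fip5 encode effectors of Rab11 proteins. In the prenylation and GDI class Gdi2 and Rabggta had 2 each and Rabac1 had 1. The 118 genes were longer than the Rabs, with a median of 47.5 kb against 23.2 kb. They had distal windows in 72.9% of genes, beside 57.9% of Rab genes and 43.8% of all genes. Their median CpG ratio was 0.735, beside 0.730 in the Rab genes. Shares at a matched length or CpG ratio were not computed for them.

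A pair of other small GTPase families gave shares on either side of the Rab share. Arf genes, of vesicle coats, had promoter windows in 22 of 28 (78.6%) and Ras genes, of growth signalling, in 18 of 28 (64.3%, all genes 48.1%). Distal windows were found for 67.9% of Arf and 57.1% of Ras genes, beside 57.9% of Rab genes and 43.8% of all genes. The highest distal counts were 7 at Mras and Arl8b, below the 10 of Rab31.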

How the data were processed

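The deposited values, as the authors made them, were positions only (first and last base per window, beside the name of its peak), with no count, score or signal. Per the labels and the study's methods, reads were mapped to mm9 with Bowtie2 2.1.0, duplicates were removed with Picard 1.79, and summits were called with MACS2 at a q-value of 0.05 (version not given in the sources used here) on aggregated cells. The 50000 windows with the lowest q-values were kept at 500 bp, so weaker sites are missing, and a window's presence carries no level. Depth was not analysed here. The names of the peaks were read as all cells pooled.

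Windows were joined by position (overlap of at least 1 bp) to GENCODE vM1 with Python 3.11.15. Sequences came from NCBIM37 (mm9) through samtools 1.23.1, and proteins were translated from the annotated coding sequence and aligned globally with Biopython 1.88. RefSeq promoter sequences (build GRCm38.p6), placed by exact match, gave starts for 47 of the 57 genes. Figures were drawn with matplotlib 3.10.9. The counting was tested on simulated windows. Any Rab gene could be named, and from each class of regulators and each other family the 3 genes with the most distal windows and, where there were at most 5, the genes without a promoter window. The symbols Hras and Arl14 were not matched, but Hras was counted among the Ras genes under its older symbol Hras1. Some marker and comparison genes are not reported here. The members, lists and rules were chosen with earlier results of these data known.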

Additional observations from a re-analysis of the deposited data

How the results depend on the processing

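Over 10 alternatives, the number of Rab genes with a promoter window was within 1.5 times the 43 counted in all but 1. It was 39 (68.4%, all genes 44.9%) with the outermost start only, and 35 of 47 (74.5%) with RefSeq starts, an alternative added after seeing the data, as were those without Rab3ip and without Rab31. With windows of multi-summit calls only, 9 genes had a promoter window (15.8%, all genes 13%) and 3 a distal one (5.26%, all genes 4.8%). In this setting the Rab genes were near the background in both. The windows numbered 20 at promoters and 8 distal, since fewer windows enter. With 50 kb either side, 50 genes (87.7%, all genes 71.1%) had 190 distal windows. The gene body alone held 47, and 126 were counted when windows at neighbouring promoters were kept. With Rab7l1 and the Rab-like genes, 46 of 61 (75.4%) had a promoter window. No paired analysis was possible because the list is 1 pooled sample and no result comes from a test, and no replicate could be left out. The number of cells and the limit of 50000 windows set what could be listed.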
